A study of Mus musculus with 6 samples.

Results

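The pyruvate dehydrogenase complex and its kinases were examined as 10 genes, chosen by symbol: Pdha1, Pdha2, Pdhb, Dlat, Dld and Pdhx for the complex, and Pdk1, Pdk2, Pdk3 and Pdk4 for the kinases. All 10 were found among the 24411 genes of the deposited tables and all 10 were among the 17110 that passed the filter on low counts. RNA came from whole testes of age-matched C57BL/6 mice, an inbred laboratory strain. In 3 of the animals the genotype label is MRP5-/- and MRP9-/- (labelled DKO below, for double knockout), and in the other 3 it is Wildtype (labelled WT). MRP5 and MRP9 are membrane transporters of the ABCC family, encoded by Abcc5 and Abcc12. The labels give no age in days, no treatment and no description of the alleles, so it is not known from them which exons were removed or whether the deletions act in every cell.

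The complex turns pyruvate into acetyl-CoA in the mitochondrial matrix and so joins glycolysis to the citric acid cycle. Its E1 enzyme is built of alpha subunits (PDHA1 or PDHA2) and beta subunits (PDHB), its E2 core of DLAT, and its E3 enzyme, DLD, is held to the core by PDHX. Pyruvate dehydrogenase kinases (PDK) phosphorylate E1 alpha and switch the complex off, and the phosphatases PDP reverse this. Pdha1 lies on the X chromosome, which is silenced in male meiosis, while Pdha2 is an intronless copy on an autosome that is known for its expression in male germ cells.

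The files give gene-level estimates, so it was first examined whether reads of Pdha2 and Pdha1 could be told apart. In GRCm38 (mm10) Pdha2 is a single-exon gene at chr3:141210004-141212355, and Pdha1 has 11 exons at chrX:160122219-160138430. Their coding sequences were identical at 75.6% of 1170 aligned bases. The longest run of bases common to both transcripts was 20, and no stretch of 50 bases of Pdha2 was found in the GENCODE transcript of any other gene. The coding stretches shown are that longest common run with 15 bases on either side. Capitals mark the bases that differ, 5 of 50.
Pdha1: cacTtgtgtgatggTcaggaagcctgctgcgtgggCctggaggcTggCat
Pdha2: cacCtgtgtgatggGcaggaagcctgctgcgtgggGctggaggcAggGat
The first lies on the minus strand within chrX:160130204-160132086 and crosses an exon junction. The second lies on the minus strand at chr3:141211420-141211469, within the coding part of the single exon. Expected counts of Pdha2, which would carry fractions where RSEM divides a fragment between genes, were whole numbers in all 6 libraries.

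Pdha1 carried such fractions, and its counts were tied to those of a neighbour. Its transcript, on the minus strand, overlaps exons of Map3k15, a kinase gene on the plus strand, over 603 bases. Expected counts of Pdha1 carried fractions in all 6 libraries, and in all 6 the counts of Pdha1 and Map3k15 summed to a whole number (within 0.011), for example 307.51 and 70.49 in labelled DKO replicate 1. The levels of Pdha1 therefore depend on how the authors' software divided these fragments. The other 8 genes had whole counts in all 6 libraries. Of these, Pdhb shares 30.3% of its 50-base stretches with Gm6123, a transcript not analysed here, so its counts are uncertain in that way.

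The levels of Pdha2 and Pdha1 stood far apart in every library. Levels are deposited TPM, transcript abundances scaled by transcript length and library total, which allow genes to be compared. Pdha2 was at 145.98, 146.02 and 159.06 TPM in libraries labelled DKO and at 160.13, 166.96 and 155.95 TPM in those labelled WT. Pdha1 was at 4.23, 3.50 and 4.64 TPM in libraries labelled DKO and at 3.43, 5.09 and 4.44 TPM in those labelled WT. The groups overlapped for both genes, while the lowest Pdha2 value was far above the highest Pdha1 value.

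The ratio of Pdha2 to Pdha1 was 34.5, 41.7 and 34.3 in libraries labelled DKO, with a mean of 36.8 ± 4.23 (SD, n = 3). In those labelled WT it was 46.7, 32.8 and 35.1, with a mean of 38.2 ± 7.44 (SD, n = 3). Pdha2 was the higher gene in 6 of 6 libraries, on average 37.2-fold (log2 ratio 5.22 ± 0.20, SD, n = 6; exact sign-flip permutation test, two-sided, p = 0.03125, the smallest that 6 libraries allow). It made up 97.0% to 97.9% of the summed E1 alpha transcripts. Giving all fragments of Map3k15 to Pdha1, an alternative chosen after seeing the data, left ratios of 26.9 to 38.7. These were taken from expected counts per base of length, not from TPM. The ratio did not separate the genotypes: the difference in log2 ratio, labelled DKO minus labelled WT, was -0.04 (exact permutation test, two-sided, p = 0.8; 3 against 3 libraries allow no p under 0.1). Its sign depended on single libraries, as the log2 difference lay between -0.14 and 0.11 when each was left out in turn. In bulk tissue, fewer cells of a type and less RNA per cell cannot be told apart, so these ratios hold for the tissue and not for any one cell type.

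**Figure D1:**
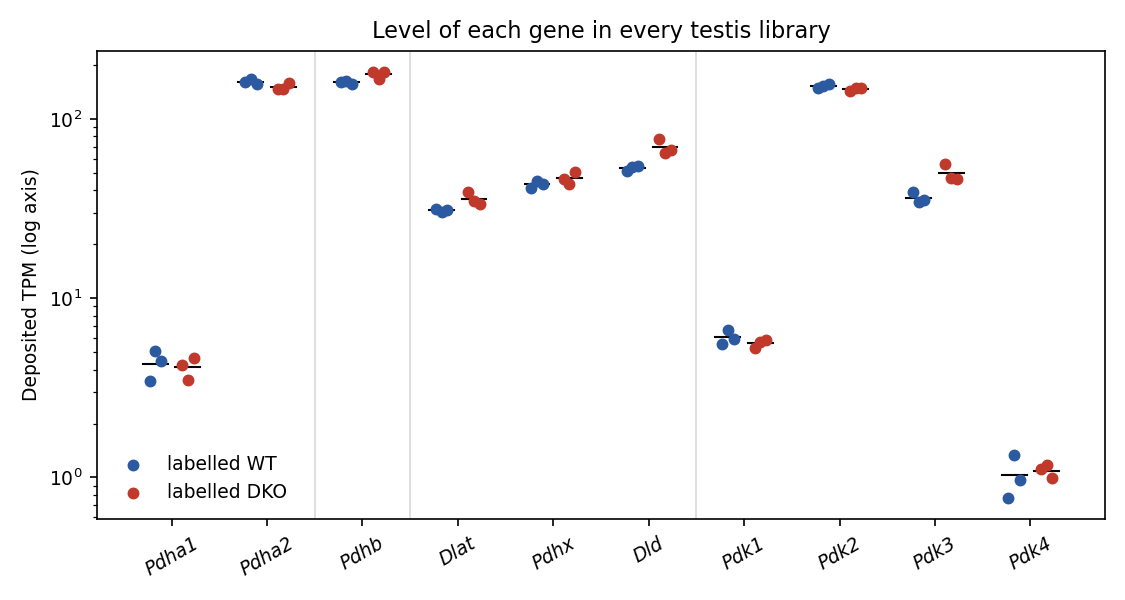
Deposited TPM on a log axis for each of the 10 genes, with a point for every library (blue, labelled WT; red, labelled DKO) and a black line at the group mean. Pdha2, Pdhb and Pdk2 lie between 142.53 and 182.43 TPM, Pdha1 between 3.43 and 5.09 TPM, and the groups stand apart for Dld and Pdk3.

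Across all 6 libraries the 10 genes fell into a high, a middle and a low tier. Pdhb, the E1 beta gene, averaged 169 TPM (157.07 to 182.43). Pdha2 averaged 156 TPM (145.98 to 166.96) and Pdk2 150 TPM (142.53 to 156.82). Neighbours among these 3 were not separated by their spread. Pdhb exceeded Pdha2 in 5 of 6 libraries, and Pdha2 exceeded Pdk2 in 4 of 6. Pdhb lay above Pdk2 in every library, though narrowly in labelled WT replicate 3 (157.07 against 156.82 TPM). In the middle tier Dld averaged 61.4 TPM, Pdhx 44.9 TPM, Pdk3 43.0 TPM and Dlat 33.3 TPM. Pdhx and Pdk3 were again not separated, with Pdhx higher in 4 of 6 libraries. From Pdk2 downward, every other pair of neighbours in the order differed the same way in 6 of 6. The low tier held Pdk1 at 5.82 TPM, Pdha1 at 4.22 TPM and Pdk4 at 1.06 TPM. Pdk4 rests on 45 to 143 expected counts per library, the fewest of the 10.

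Differences between the genotypes were tested with the edgeR quasi-likelihood test on all 17110 genes, and a gene was called at a Benjamini-Hochberg adjusted p under 0.05. Of the 10 genes 2 were called, Dld and Pdk3, both higher in libraries labelled DKO. Among all tested genes 10.8% were called, 5.75% as higher and 5.10% as lower. None of the 10 was called as lower, and none had an unadjusted edgeR p under 0.05 in that direction or was called as lower by DESeq2. An unadjusted p under 0.05 was reached by 5 of the 10, Pdhb, Dlat, Dld, Pdhx and Pdk3, and by 31.7% of all tested genes. The median log2 fold change was 0.16 over the 10 genes and -0.0042 over all tested genes. In TPM the groups did not overlap for 5 of the 10 genes, against 33.2% of all tested genes; 4 of these (Pdhb, Dlat, Dld and Pdk3) were higher in libraries labelled DKO, against 15.0%, and Pdk2 was lower. Of the calls over all genes, 984 were higher and 872 lower, a split that turned to 279 and 456 with limma on log2(TPM + 1).

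**Figure D2:**
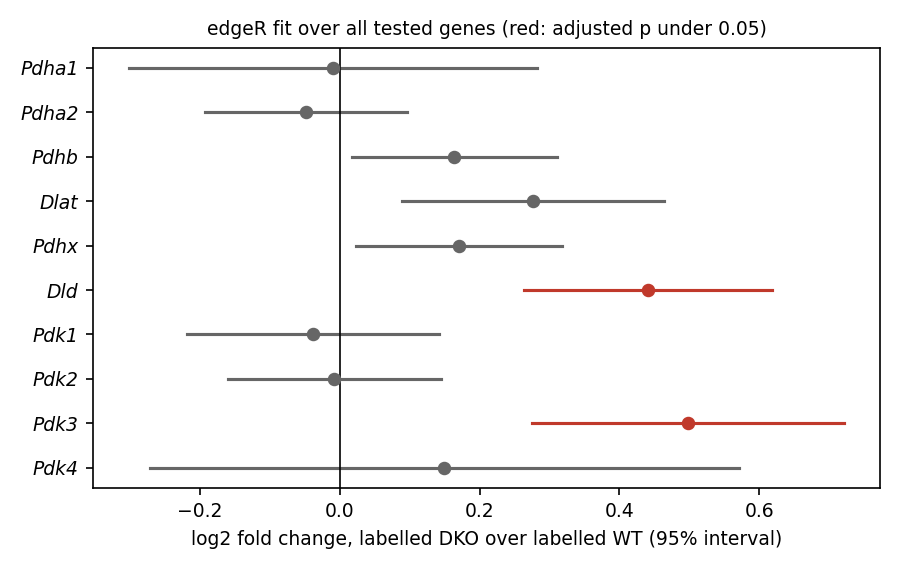
Log2 fold change of each gene, labelled DKO over labelled WT, from the edgeR fit over all tested genes, with its 95% interval. Dld at 0.44 and Pdk3 at 0.50 (red) passed an adjusted p of 0.05, and the other 8 genes (grey) did not.

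Of the catalytic E1 genes none passed the test. Pdha2 had a log2 fold change of -0.05 (SE 0.0662, 95% interval -0.19 to 0.10; edgeR adjusted p = 0.651). Pdha1 had one of -0.01, with a wider interval of -0.30 to 0.28 (adjusted p = 0.968). Pdhb was at 182.43, 165.96 and 181.97 TPM in libraries labelled DKO and at 161.17, 163.54 and 157.07 TPM in those labelled WT. Its groups did not overlap, but its log2 fold change of 0.16 (SE 0.0667) missed the threshold (edgeR adjusted p = 0.117). Summed E1 alpha TPM was 0.823 to 0.901 of Pdhb TPM in libraries labelled DKO and 1.01 to 1.05 in those labelled WT, with no overlap (exact permutation p = 0.1, the smallest possible).

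Dld, the E3 enzyme that reoxidises the lipoyl arms of E2, was the subunit gene with the largest difference. It was at 77.22, 64.32 and 67.37 TPM in libraries labelled DKO and at 51.15, 53.64 and 54.47 TPM in those labelled WT. The groups did not overlap, and labelled DKO replicate 1 was the highest. The edgeR estimate was 1.36-fold higher (log2 fold change 0.44, SE 0.0811; adjusted p = 0.0237). DLD is also the E3 of the related 2-oxoglutarate and branched-chain complexes and of the glycine cleavage system, so its level is not particular to pyruvate dehydrogenase.

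The core genes Dlat and Pdhx differed less. Dlat, whose protein carries the lipoyl arms and makes acetyl-CoA, was at 38.90, 34.75 and 33.54 TPM in libraries labelled DKO and at 31.30, 30.33 and 31.05 TPM in those labelled WT. The groups did not overlap, and the log2 fold change of 0.28 (SE 0.0857) lay just outside the threshold (edgeR adjusted p = 0.0569). It passed the threshold with DESeq2 (adjusted p = 0.0275). With fragment length as a covariate its direction turned, to a log2 fold change of -0.044 (edgeR adjusted p = 0.999). Pdhx, the E3-binding protein, was at 43.31 to 50.71 TPM in libraries labelled DKO and 40.93 to 44.89 TPM in those labelled WT, with overlap, and did not pass (log2 fold change 0.17; edgeR adjusted p = 0.109). For every unit of Dlat there were 1.95 ± 0.0851 of Dld in libraries labelled DKO and 1.72 ± 0.0738 in those labelled WT (SD, 3 libraries a group), without overlap, and the exact permutation test gave p = 0.1.

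Among the kinases, Pdk3 was the called gene. It was at 56.19, 46.64 and 46.24 TPM in libraries labelled DKO and at 39.03, 34.41 and 35.22 TPM in those labelled WT. The groups did not overlap, and within each group replicate 1 was the highest. The edgeR estimate was 1.41-fold higher (log2 fold change 0.50, SE 0.102; adjusted p = 0.0263). Pdk3, like Pdha1, is X-linked, at chrX:93764616-93832150.

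Pdk2, the kinase gene with the highest level, showed no such difference. It was at 142.53, 148.86 and 149.21 TPM in libraries labelled DKO and at 149.50, 152.11 and 156.82 TPM in those labelled WT, a narrow gap in TPM that was absent from the count-based estimate (log2 fold change -0.01, 95% interval -0.16 to 0.15; edgeR adjusted p = 0.953). Pdk1, known as a target of the hypoxia factor HIF1A, was at 5.28 to 5.83 TPM against 5.53 to 6.65 TPM (log2 fold change -0.04; edgeR adjusted p = 0.784). Pdk4, a kinase known for its induction by fasting in other tissues, was at 0.99 to 1.17 TPM against 0.77 to 1.34 TPM in libraries labelled WT. Its low counts leave a wide interval of -0.27 to 0.57 around a log2 fold change of 0.15 (edgeR adjusted p = 0.629).

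The kinase transcripts are also given as shares of their sum. Pdk3 supplied 27.4%, 23.1% and 22.9% of summed kinase TPM in libraries labelled DKO and 20.03%, 17.7% and 17.7% in those labelled WT. Pdk2 supplied 72.3% ± 2.42 in libraries labelled DKO and 77.9% ± 1.07 in those labelled WT (SD, n = 3 each). Neither share overlapped between the groups. For every unit of Pdk2 there were 0.339 ± 0.0477 of Pdk3 in libraries labelled DKO and 0.237 ± 0.0206 in those labelled WT (SD, 3 libraries a group), and the exact permutation test gave p = 0.1, the smallest possible. Summed kinase TPM was 202.27 to 205.12 in libraries labelled DKO and 194.51 to 198.95 in those labelled WT, again without overlap (exact permutation p = 0.1). The shares, the ratio and the sum are built from the same TPM values as the Pdk3 difference and add no separate support to it. Pdk1 supplied 2.57% to 3.42% and Pdk4 at most 0.689%.

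**Figure D3:**
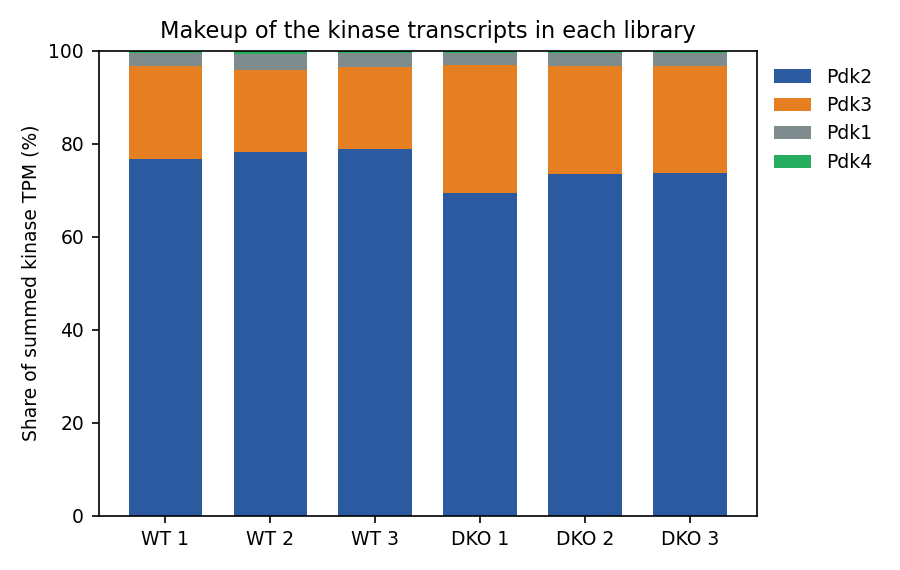
Share of each kinase gene in the summed TPM of Pdk1, Pdk2, Pdk3 and Pdk4, in percent, as stacked bars for the 6 libraries. Pdk3 (orange) takes 22.9% to 27.4% in the libraries labelled DKO and 17.7% to 20.03% in those labelled WT.

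The calls of Dld and Pdk3 did not hold in every fit. They were lost without labelled DKO replicate 1 (edgeR adjusted p = 0.0980 for Dld and 0.106 for Pdk3), without labelled WT replicate 2 (0.0789 and 0.0967) and without labelled WT replicate 3 (0.0993 and 0.101), fits in which only 11, 13 and 7 genes of the whole table were called. The direction did not change, with log2 fold changes of at least 0.34 for Dld and 0.39 for Pdk3 in these fits. The mean length of the sequenced fragments, recovered from the deposited lengths, was 275 to 317 bases in libraries labelled DKO and 230 to 258 bases in those labelled WT, and the replicate with the longest fragments, labelled DKO replicate 1, had the highest Dld, Dlat and Pdk3. With fragment length as a covariate, the log2 fold change was 0.18 for Dld and 0.07 for Pdk3 (edgeR adjusted p = 0.999 for both), none of the 10 genes was called and none had an unadjusted p under 0.05. Over all alternatives the adjusted p ranged from 0.000185 to 0.999 for Dld and from 0.000359 to 0.999 for Pdk3. Because fragment length does not overlap between the groups, genotype and fragment length cannot be told apart here. An offset from the effective lengths adjusts only for the part of each transcript that fragments of that length can cover. For genes as long as Dld (2277 bases) and Pdk3 (2000 bases) this is a small shift. It left Dld at 0.44 and Pdk3 at 0.50, and an offset for a trend with gene length gave 0.45 and 0.52. Both genes stayed called under each, but neither offset can separate genotype from fragment length.

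**Figure D4:**
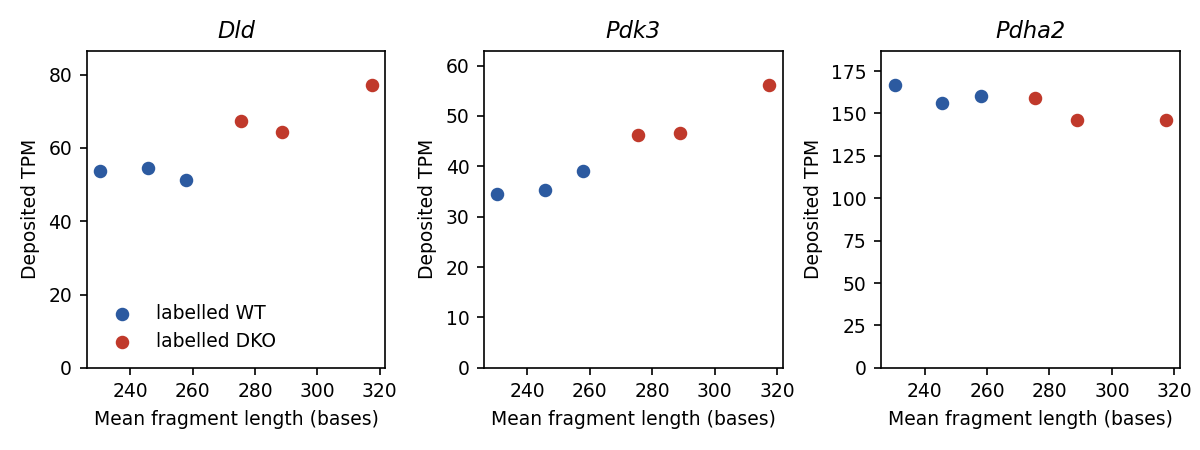
Deposited TPM of Dld, Pdk3 and Pdha2 against the mean fragment length of each library in bases (blue, labelled WT; red, labelled DKO). All libraries labelled DKO lie at 275 bases or more and all labelled WT at 258 or less, and the library with 317 bases has the highest Dld (77.22 TPM) and Pdk3 (56.19 TPM).

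**Figure D5:**
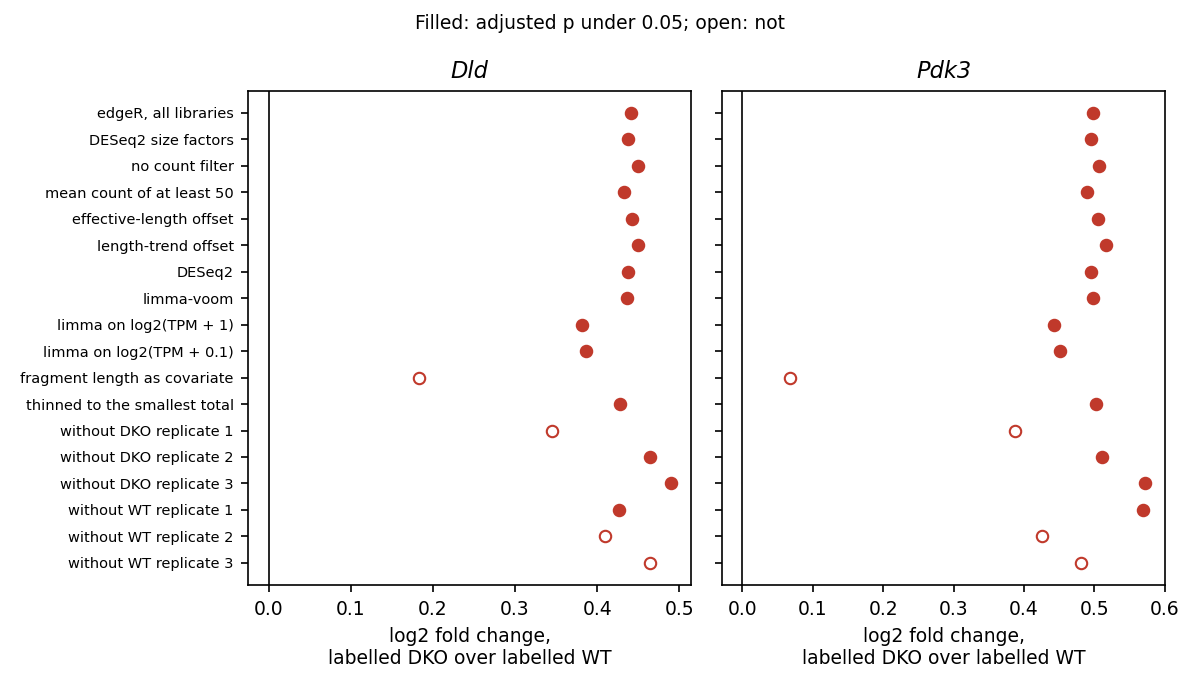
Log2 fold change of Dld and of Pdk3, labelled DKO over labelled WT, under each analysis setting; filled points have an adjusted p under 0.05 and open points do not. Every point lies above 0, and the open ones are the fit with fragment length as a covariate and the fits without labelled DKO replicate 1, WT replicate 2 or WT replicate 3.

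The libraries held 42673615 to 67131103 expected counts in those labelled DKO and 26753721 to 31745969 in those labelled WT. Because these totals do not overlap, genotype and depth cannot be told apart either. Thinning all to the smallest total left Dld and Pdk3 called, but it evens out the counts only and cannot separate genotype from depth. Of the targeted genes, Abcc12 was lower in libraries labelled DKO (26.6 ± 0.978 against 56.7 ± 1.54 TPM, SD, n = 3 each; edgeR log2 fold change -1.02, adjusted p = 0.000307). Abcc5 was not lower but was called as higher (4.61 ± 0.200 against 3.66 ± 0.346 TPM, edgeR log2 fold change 0.56, adjusted p = 0.0225). Because the labels do not describe the alleles, this transcript level neither bears out nor contradicts the genotype. Groups are therefore called by their labels. Markers of the testis cell types were present and moved in part. Over all 17110 tested genes edgeR called 5.75% as higher and 5.10% as lower, and 31.7% had an unadjusted p under 0.05. DESeq2 called 2943 of all tested genes, 1645 as higher and 1298 as lower. Among spermatocyte markers edgeR called 2 of 10 as higher, Sycp3 (adjusted p = 0.0237) and Hormad1 (adjusted p = 0.0498), and 7 had an unadjusted p under 0.05. DESeq2 called Sycp3 and Sycp2, and limma-voom called 1. The 10 markers summed to 2666 to 2951 TPM in libraries labelled DKO and 2276 to 2541 TPM in those labelled WT. Most of this sum was Ybx2 (1521.53 to 1902.71 TPM), which edgeR did not call. Sycp3, a meiotic chromosome protein, was highest in labelled DKO replicate 1, at 280.58 TPM, as Dld and Pdk3 were. Among the other spermatocyte markers, Piwil1 was highest in labelled WT replicate 2 (220.43 TPM) and Ccna1 in labelled WT replicate 3 (146.56 TPM). The rest were highest in labelled DKO replicate 1. EdgeR called 4 of 10 Leydig markers as lower and DESeq2 3. An unadjusted edgeR p under 0.05 was reached by 6 of the 10, all lower. These 10 summed to 1095 to 1811 TPM in libraries labelled DKO against 1803 to 3804 TPM in those labelled WT. Much of that sum was Insl3 (581.95 to 2575.5 TPM). Both tools called 4 of 10 Sertoli markers as lower, and 5 had an unadjusted edgeR p under 0.05, all lower. The Sertoli markers summed to 1067 to 1250 TPM in libraries labelled DKO against 1183 to 1551 TPM in those labelled WT. Most of that sum was Clu (743.85 to 1138.53 TPM), which neither tool called. Of 5 peritubular myoid markers edgeR called 1 as lower, Tagln, and DESeq2 called 3, Acta2, Myh11 and Tagln (64.3 to 75.2 against 75.4 to 111 TPM). The same 3 had an unadjusted edgeR p under 0.05, all lower. Both tools called 1 of 10 spermatid markers as higher and 1 as lower (109484 to 119714 against 102441 to 111975 TPM). By edgeR these were the 2 spermatid markers with an unadjusted p under 0.05. By edgeR none of 9 tested spermatogonia, 6 macrophage, 5 endothelial and 2 epididymis markers was called (1, 2, 1 and 0 had an unadjusted p under 0.05, and DESeq2 called none). The 6 epididymis markers summed to 762 to 859 TPM in libraries labelled DKO and 729 to 790 TPM in those labelled WT, nearly all of it Cst8 (722.86 to 852.77 TPM); Rnase10 was at 4.96 to 7.24 TPM, Crisp1 and Lcn9 at 0.17 TPM or less, and Lcn5 and Lcn8 at 0 in all 6 libraries. The part of these markers in the levels of the 10 genes was not tested.

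Related genes were read from lists drawn up by function. The phosphatases that oppose the kinases did not pass the test. Pdp1, the more abundant one, was at 20.3 ± 1.62 TPM against 20.4 ± 1.22 TPM in libraries labelled WT (SD, n = 3 each; log2 fold change 0.06, edgeR adjusted p = 0.614). Pdp2 was at 1.05 to 1.2 TPM against 1.25 to 1.61 TPM (log2 fold change -0.27; adjusted p = 0.221), and Pdpr, their regulatory subunit, had a log2 fold change of 0.13 (adjusted p = 0.466). None of these 3 had an unadjusted p under 0.05 or was called by DESeq2. The summed kinases exceeded Pdp1 and Pdp2 together 9.53-fold ± 0.755 in libraries labelled DKO and 9.01-fold ± 0.523 in those labelled WT, with overlap.

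Of the carrier that brings pyruvate into mitochondria, Mpc2 was at 291.54, 262.67 and 264.34 TPM in libraries labelled DKO and at 234.44, 200.17 and 225.33 TPM in those labelled WT. These groups did not overlap, but the log2 fold change of 0.27 missed the threshold with edgeR (adjusted p = 0.0582) and passed it with DESeq2. Mpc1, of the same carrier list, overlapped between the groups (22.4 ± 0.387 against 24.2 ± 5.37 TPM, SD, n = 3 each; edgeR adjusted p = 0.501). The other gene of that list, Mpc1l, was absent from the 24411 genes, so its level is not known here. Among 7 genes of lipoate synthesis and transfer, which supply the cofactor of DLAT, Lias was called, at 78.2 ± 3.77 against 67.5 ± 3.15 TPM (SD, n = 3 each; log2 fold change 0.25, edgeR adjusted p = 0.0397), and DESeq2 called the same gene alone. Among 12 genes of the related dehydrogenases, their kinase and phosphatase, and the glycine cleavage system, Ogdhl was called as lower, at 12.0 ± 1.80 against 18.0 ± 4.31 TPM (SD, n = 3 each; log2 fold change -0.51, edgeR adjusted p = 0.0376). DESeq2 called Ogdhl and Bckdha as lower, and 3 of the 12 had an unadjusted edgeR p under 0.05, all lower. Dlst, Dbt and Gcsh, which work directly with DLD, were not called by either tool. By edgeR none of 10 enzymes that make or use pyruvate was called. An unadjusted edgeR p under 0.05 was reached by 6 of them, 5 as lower, against 31.7% of all tested genes. DESeq2 called 2, Pkm and Ldhb, as lower. None of 6 transcription factors known to act on Pdk genes was called by edgeR or DESeq2, and 1 had an unadjusted p under 0.05. The list medians were 0.06 for phosphatases, 0.07 for the 2 carrier genes tested and -0.13 for lipoate genes. They were -0.13 for the related dehydrogenases, -0.20 for pyruvate enzymes and -0.11 for the transcription factors.

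The pair of Pdha2 and Pdha1 was set beside 6 other autosomal testis retrogenes and their X-linked parents. The ratio of Pdha2 to Pdha1, 32.8 to 46.7 over the 6 libraries, was below that of Cetn1 to Cetn2 (117 to 191) and overlapped that of Pgk2 to Pgk1 (38.8 to 74.1). It was above those of Rbmxl2 to Rbmx (3.63 to 8.37), Utp14b to Utp14a (2.87 to 3.98), Rpl10l to Rpl10 (1.98 to 3.40) and Cstf2t to Cstf2 (0.534 to 0.727). Only for Pgk2 to Pgk1 did the ratio not overlap between genotypes, with means of 70.8 and 51.9 (log2 difference 0.48; exact permutation p = 0.1). Of the 7 retrogenes, Utp14b was called as higher (log2 fold change 0.31, edgeR adjusted p = 0.0372). Expected counts of Utp14b and of Utp14a carried fractions in every library, so their levels also depend on how fragments were divided between genes. Of the 7 parents none was called by edgeR, while 3 had an unadjusted p under 0.05 and DESeq2 called 1, Rpl10, as lower.

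Sequence upstream of the annotated starts is shown for the E1 alpha pair, because they encode the same subunit at levels far apart, and for the called genes Dld and Pdk3. Each run is the 250 bases before a RefSeq start in GRCm38.p6, and capitals mark CG dinucleotides.
Pdha1: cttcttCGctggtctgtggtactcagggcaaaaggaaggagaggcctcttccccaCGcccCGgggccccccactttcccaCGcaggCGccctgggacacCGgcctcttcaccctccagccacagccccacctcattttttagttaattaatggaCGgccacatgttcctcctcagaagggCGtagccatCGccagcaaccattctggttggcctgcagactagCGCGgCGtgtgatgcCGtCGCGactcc
Pdha2: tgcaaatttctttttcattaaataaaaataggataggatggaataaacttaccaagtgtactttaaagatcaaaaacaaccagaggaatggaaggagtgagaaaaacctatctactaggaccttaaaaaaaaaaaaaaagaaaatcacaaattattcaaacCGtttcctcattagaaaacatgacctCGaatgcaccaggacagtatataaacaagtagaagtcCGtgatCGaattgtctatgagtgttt
Dld: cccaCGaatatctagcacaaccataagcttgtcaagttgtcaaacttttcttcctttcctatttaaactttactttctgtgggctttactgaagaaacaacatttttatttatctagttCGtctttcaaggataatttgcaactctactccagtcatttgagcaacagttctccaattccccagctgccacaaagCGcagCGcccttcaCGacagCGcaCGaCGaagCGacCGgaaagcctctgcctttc
Pdk3: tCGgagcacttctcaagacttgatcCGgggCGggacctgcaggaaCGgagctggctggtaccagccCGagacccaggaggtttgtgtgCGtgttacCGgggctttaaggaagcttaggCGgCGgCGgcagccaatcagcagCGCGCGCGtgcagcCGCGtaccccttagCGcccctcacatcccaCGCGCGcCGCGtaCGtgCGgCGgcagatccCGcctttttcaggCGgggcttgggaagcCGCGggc
All 4 lie on the minus strand, at chrX:160138431-160138680 (Pdha1), chr3:141212356-141212605 (Pdha2), chr12:31351472-31351721 (Dld) and chrX:93832151-93832400 (Pdk3). The window of Pdha2 held 4 CG dinucleotides and 31.6% G and C, and that of Pdha1 held 15 and 61.6%. The windows of Dld and Pdk3 held 10 and 29 CG dinucleotides, against a median of 6 over 32851 such windows of the table. The annotated start of Pdha2 lies 610 bases before its start codon, so the window is upstream of a long untranslated region. The letters TATAAA, on either strand, were in the window of Pdha2 and in 12.4% of all windows, but not in those of the other 3. CCAAT, on either strand, was in the windows of Dld and Pdk3 and in 33.8% of all windows. The cyclic AMP response element TGACGTCA was in none of the 10 genes' windows and in 1.5% of all windows. TGACGTCA itself contains a CG, the other letters searched hold none, and a match describes letters only.

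The genes whose profile over the 6 libraries was most like those of the E1 alpha genes were found by Pearson's r of log2 CPM, the counts scaled to a common library size, as a description over points that share library, depth and genotype. For Pdha2 they were 4930507D10Rik (r 0.999), Wdfy2 (0.997), Dchs1 (0.994), Dgcr2 (0.993) and Xrcc6bp1 (0.990). For Pdha1 they were Rnase4 (r 0.990), Sh3gl2 (0.989), Yaf2 (0.988), Aagab (0.987) and Plrg1 (0.980). None of these 10 genes was called between the genotypes.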

How the data were processed

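Whole-testis RNA libraries of 3 animals labelled DKO and 3 labelled WT were grouped by their genotype label. Replicate numbers follow deposition order and pair nothing; the labels call the animals age-matched, and p-values measure the spread between these samples. The files deposited by the authors have the columns of RSEM gene-level output, 1 per library. STAR 2.7.0f, RSEM 1.2.31, DESeq2 1.12.3 and mm10 are named in the submitters' processing notes; strand handling and read filters are not given in the sources used here. The authors deposited RSEM's expected counts, whole numbers for 93.2% of values. TPM and FPKM were deposited by the authors, scaled for length and library size per the file headers. The deposited length is in bases.

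Here, expected counts were rounded, genes kept by filterByExpr, libraries scaled by TMM, and genotypes compared with edgeR 4.0.16 over all genes (Benjamini-Hochberg, threshold 0.05). A standard error is the log2 fold change divided by the root of F. Mean fragment length was taken from deposited and effective lengths: their difference plus 1, as a median over genes above 3000 bases. Likeness was ranked over genes whose mean log2 CPM was not under 0. Alternatives used DESeq2 1.42.0, limma 3.58.1 and other scalings, filters and offsets. Fits were tested on simulated data. No pair of libraries was a duplicate (chi-square per degree of freedom at least 6.48). Members and lists were chosen with earlier results of these data known. Named genes are all members, the targeted genes, called genes of the related lists (at most 3 a list), lists of 3 genes in full, every X-linked pair, and the 5 genes most like each E1 alpha gene; other genes named were chosen after their values were seen. Sequences are from RefSeq (GRCm38.p6; all 10 genes matched) and GENCODE M21, with Biopython 1.88.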

Additional observations from a re-analysis of the deposited data

How the results depend on the processing

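Over all tested genes, 2943 were called with DESeq2, 735 with limma on log2(TPM + 1), 947 with limma on log2(TPM + 0.1), and 1 with fragment length as a covariate (545 at an unadjusted p under 0.05), against 1856 with edgeR; leaving out each library gave 7 to 3029. Of the 10 genes, 0 were called with the covariate and 0 to 3 when each library was left out (3 to 5 at an unadjusted p under 0.05). With the covariate, Dld was at 0.18 and Pdk3 at 0.068 on the log2 scale; leaving out each library gave 0.34 to 0.49 and 0.39 to 0.57. Both stayed called under the other 10 alternatives that kept all libraries. Higher and lower calls were 984 and 872 with edgeR, 279 and 456 on log2(TPM + 1), and 370 and 577 on log2(TPM + 0.1). With the covariate Dlat turned from 0.28 (edgeR adjusted p = 0.0569) to -0.044; it was called in 4 of 17 alternatives. Genes near 0 and not called in any fit also changed sign: with the covariate Pdha1 to 0.20 and Pdk1 to 0.10, and Pdk2 to 0.00096 without a count filter and 0.0012 with a length-trend offset. When each library was left out, Pdha1 ranged from -0.14 to 0.082, Pdk2 from -0.051 to 0.015, Pdk4 from -0.0045 to 0.34, and the genotype difference in the log2 ratio of Pdha2 to Pdha1 from -0.14 to 0.11. That log2 ratio averaged 4.92 with log2(TPM + 1), against 5.22 in TPM. From expected counts per base of length it averaged 5.19, and 4.90 with all Map3k15 counts given to Pdha1. The cause of these changes was not tested. Pdk4, with 45 to 143 counts per library, had the widest error of the 10 genes (SE 0.192). No paired analysis was possible because the labels give no shared replicate numbers.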
